A study of Mus musculus with 4 samples.

Results

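Sall1, Sall3, Spi1, Irf8, Mef2c, Mef2a, Maf, Cebpa and Runx1 encode transcription factors tied to the origin or identity of microglia, the resident macrophages of the brain. They were chosen by name, and all 9 were found among the 32285 genes of the count tables. Their unique molecular identifier (UMI) counts, each standing for 1 captured transcript, were followed over microglia subsets, border macrophages, monocytes and the 4 single-cell RNA libraries. The study asked whether blocking VCAM1, an endothelial adhesion molecule, or VLA4, the leukocyte integrin that binds it, changes the brain late after stroke.

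All animals were male C57BL/6N mice aged 10 months. A sham operation with isotype control antibody formed one group. The other 3 groups had stroke by distal middle cerebral artery occlusion (dMCAO) and received isotype control antibody, anti-VCAM1 or anti-VLA4. Antibody was given for 10 weeks in every group. Cortex of 4 to 5 mice per group, the lesion core with about 2 mm around it after stroke, was pooled into 1 library per group, so no group has a replicate. The cells were stained for CD31 and CD45 and dead cells were excluded; the fractions collected are not given in the sources used here. Each difference is therefore between 2 libraries and carries no test, and all intervals are at 95% and reflect counting error alone.

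Microglia arise from yolk sac progenitors, and their development needs the protein PU.1, encoded by Spi1, which works together with IRF8 and RUNX1. SALL1 holds mature microglia in their resting state, and MEF2 and MAF family factors act with PU.1 at enhancers of macrophage genes. C/EBP alpha, encoded by Cebpa, primes myeloid progenitors and stays in use in microglia.

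The sham isotype, stroke isotype, anti-VCAM1 and anti-VLA4 libraries retained 1514, 2832, 4657 and 6209 cells after filtering, with 9857631 to 33389282 UMIs per library and medians of 4515 to 5456.5 UMIs per cell. This order of the libraries is kept wherever 4 values are given. Cells were clustered without the 9 genes and the gene lists, and clusters were named from markers. Microglia-like cells numbered 689, 1471, 1797 and 2427. Border macrophage-like cells, the macrophages of meninges and perivascular spaces, numbered 112, 183, 59 and 91. Monocyte-like cells numbered 9, 25, 16 and 3. All 9 microglia markers were detected in the microglia-like cells of each library, summing to 14480 to 15266 UMIs per 1000000 of the class (counts scaled this way are called CPM), while the 8 border macrophage markers summed to 10.6 to 25.2 CPM there. In border macrophage-like cells the 8 border markers, all detected, summed to 3826 to 4870 CPM, and the 9 microglia markers still summed to 2760 to 4330 CPM. The monocyte markers summed to 3287 to 5623 CPM in monocyte-like cells.

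The sham and stroke isotype libraries shared 59 cell barcodes, against 1 to 8 for each other pair of libraries. In 56 of the 59 the barcode was at least 10 times deeper in one library, in 55 the deeper one was sham, and the median depths were 18156 and 603 UMIs. Cells with a barcode found in another library held 6.11%, 0.763%, 0.203% and 0.545% of the UMIs of microglia-like cells. In border macrophage-like cells they were 7 of 112 sham cells holding 23.6% of UMIs and 4 of 183 stroke isotype cells holding 1.01%, with none in the other libraries. Values without these cells are given for the ratios of border macrophage-like cells that moved by over 1.5 times or changed sign without them, which were those of Sall1, Sall3 and Cebpa.

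RefSeq promoter windows (GRCm38.p6) were found for 6 of the 9 genes, namely Sall1, Irf8, Mef2c, Mef2a, Cebpa and Runx1, and for 12 start sites in all. The 250 bases before each start were searched on both strands for the PU.1 core GAGGAA, the IRF motif of 2 GAAA repeats with 2 bases between them, the RUNX motif TGTGGT, the C/EBP motif TTGCNNCAA, the MAF half-site TGCTGAC and the MEF2 motif. These motifs bind proteins that the genes themselves encode. PU.1 cores were the only matches, in 4 of the 12 windows, and 8 windows held none of the 6 motifs. Of 32851 promoters of the same length, 23.3% held the PU.1 core, 2.98% the IRF motif, 1.74% the C/EBP motif, 3.81% the MAF half-site and 2.92% the MEF2 motif, and 4614 held the RUNX motif. A match is a string of letters and not a shown binding site. The 4 windows below belong to the genes that the results turn on: Mef2a and Mef2c with PU.1 cores in capitals, and Cebpa and Sall1 without a match.
Mef2a, chr7:67372859-67373108, minus strand: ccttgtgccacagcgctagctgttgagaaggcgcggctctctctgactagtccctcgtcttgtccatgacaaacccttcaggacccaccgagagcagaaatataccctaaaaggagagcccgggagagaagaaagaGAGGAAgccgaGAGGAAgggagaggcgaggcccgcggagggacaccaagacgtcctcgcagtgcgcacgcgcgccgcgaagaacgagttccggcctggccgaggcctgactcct
Mef2c, chr13:83503784-83504033, plus strand: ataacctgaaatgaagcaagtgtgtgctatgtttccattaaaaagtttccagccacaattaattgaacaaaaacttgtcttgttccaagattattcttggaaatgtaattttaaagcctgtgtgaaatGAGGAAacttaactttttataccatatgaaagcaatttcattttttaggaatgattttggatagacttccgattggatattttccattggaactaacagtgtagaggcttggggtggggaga
Cebpa, chr7:35119043-35119292, plus strand: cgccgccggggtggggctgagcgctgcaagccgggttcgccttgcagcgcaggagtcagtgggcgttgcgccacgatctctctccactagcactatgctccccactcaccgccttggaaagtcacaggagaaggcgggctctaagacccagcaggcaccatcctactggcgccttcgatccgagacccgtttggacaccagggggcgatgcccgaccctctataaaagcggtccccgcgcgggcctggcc
Sall1, chr8:89044163-89044412, minus strand: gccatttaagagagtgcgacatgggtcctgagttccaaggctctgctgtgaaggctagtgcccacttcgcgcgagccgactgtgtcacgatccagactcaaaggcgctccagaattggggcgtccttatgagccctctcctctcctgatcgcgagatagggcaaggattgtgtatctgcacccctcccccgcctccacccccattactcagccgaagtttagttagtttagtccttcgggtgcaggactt

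The Mef2a window holds its cores 114 to 109 and 103 to 98 bases before the start, and the Mef2c window holds one 122 to 117 bases before. A second Mef2c window had the core 186 to 181 bases before its start, and a second Runx1 window had it on the opposite strand 46 to 41 bases before. The genes span very different lengths in the GRCm38 annotation (GENCODE M21). Cebpa spans 2.64 kb on chromosome 7, from 35119293 to 35121928. Sall1 spans 16.9 kb on chromosome 8, and Mef2a, Mef2c and Runx1 span 142, 163 and 225 kb on chromosomes 7, 13 and 16. Irf8, Sall3, Maf and Spi1 span 20.3, 20.4, 24.9 and 33.4 kb.

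In microglia-like cells all 9 factors kept nearly the same level across the 4 libraries, apart from Cebpa. None of the 9 was past 1.5-fold, the size used here to call a difference between libraries for genes with at least 20 UMIs over both, in stroke over sham isotype or in either antibody over stroke isotype. Of all genes with that many UMIs, 6.25% were past 1.5-fold for stroke, 3.75% for anti-VCAM1 and 4.73% for anti-VLA4, so with 9 genes a count of 0 is near that background. Among genes with at least 200 UMIs, the range in which all 9 lie, 56 were higher and 48 lower of 7571 for stroke. For anti-VCAM1 these were 23 and 36 of 8434, and for anti-VLA4 34 and 113 of 8841. The median log2 ratio of the 9 genes was -0.04, 0.04 and -0.02 in the 3 comparisons, beside -0.03, 0.04 and 0.06 for all genes. Both antibody comparisons use the same stroke isotype library.

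**Figure D1:**
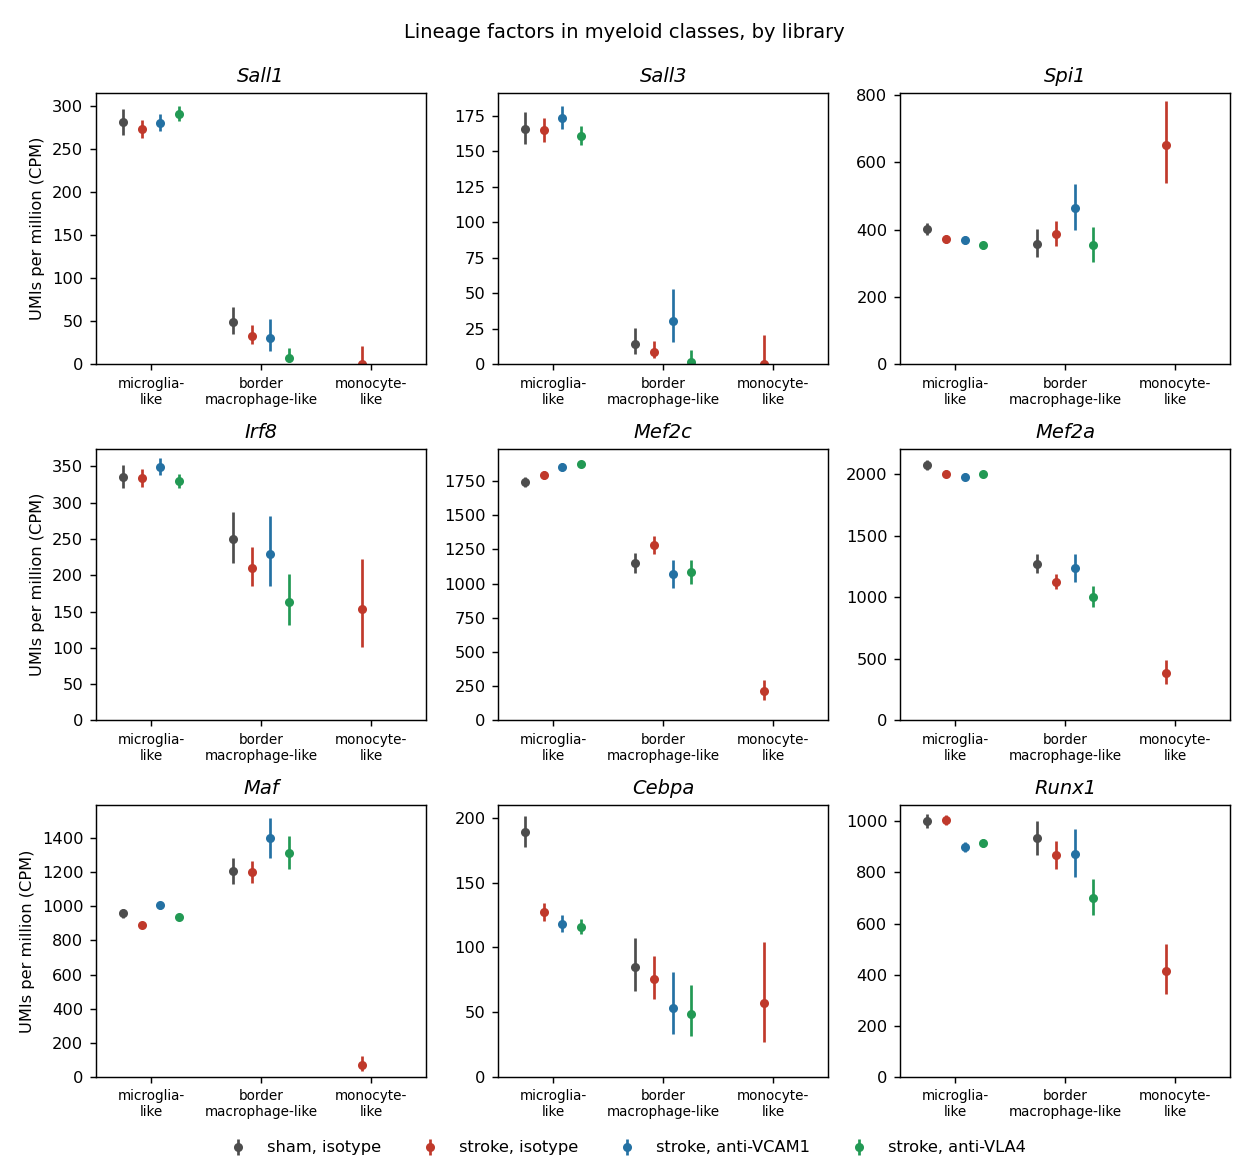
CPM (y axis, from 0, scaled for each gene) of the 9 genes in microglia-like, border macrophage-like and monocyte-like cells, with 1 point per library and exact Poisson 95% intervals; monocyte-like cells are drawn only for stroke isotype, with 25 cells. In microglia-like cells Cebpa is at 189 CPM in sham and 116 to 127 CPM in the 3 stroke libraries, while Sall1 and Sall3 stand far above their levels in border macrophage-like cells in each library.

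Sall1 and Sall3 encode zinc finger repressors of one family. Sall1 measured 282, 273, 281 and 292 CPM in microglia-like cells. Sall3 measured 166, 165, 174 and 161 CPM. The libraries overlapped within counting error for both genes, except that Sall1 was higher with anti-VLA4 than with isotype after stroke, by a log2 ratio of 0.09 (0.02 to 0.17). With matched cluster weights, each microglia cluster was weighted in both libraries by its number of cells over all libraries. So weighted, the Sall1 value for anti-VLA4 was -0.01, and the one of Sall3 for anti-VCAM1 went from 0.08 (-0.02 to 0.18) to 0.22.

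Spi1 measured 402, 371, 369 and 353 CPM, highest in sham. Its log2 ratio was -0.11 (-0.19 to -0.03) for stroke over sham and -0.07 (-0.14 to -0.01) for anti-VLA4 over isotype. Irf8, which encodes a partner of PU.1, measured 335, 334, 349 and 330 CPM, and its interval spanned 0 in the 3 comparisons.

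Mef2c and Mef2a encode MADS-box factors. Mef2c measured 1740, 1794, 1853 and 1874 CPM, lowest in sham. The log2 ratio was 0.04 (0.01 to 0.08) for stroke over sham. Over stroke isotype it was 0.05 (0.02 to 0.08) after anti-VCAM1, and after anti-VLA4 0.06 (0.03 to 0.09), and with matched cluster weights both were 0.10. Mef2a measured 2072, 2002, 1977 and 2000 CPM. The Mef2a ratio was -0.05 (-0.08 to -0.02) for stroke, was 0.02 with matched cluster weights, and its intervals spanned 0 for both antibodies.

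Maf encodes c-Maf, a leucine zipper factor of tissue macrophages. It measured 960, 891, 1007 and 939 CPM, lowest in stroke isotype. Stroke over sham gave a log2 ratio of -0.11 (-0.16 to -0.06). Against isotype, anti-VCAM1 gave 0.18 (0.13 to 0.22), while anti-VLA4 gave 0.08 (0.04 to 0.12). With matched cluster weights the antibody values were 0.20 and 0.02. Runx1, which encodes a factor of blood cell formation, measured 1001, 1006, 899 and 915 CPM, so the antibody libraries lay below the other pair without overlap of the intervals. Its log2 ratios were 0.01, -0.16 (-0.20 to -0.12) and -0.14 (-0.18 to -0.10), and with matched cluster weights the antibody values were -0.05 and 0.02.

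Cebpa measured 189, 127, 118 and 116 CPM, from 968, 1183, 1186 and 1544 UMIs. The sham interval, 177 to 201 CPM, lay above those of the 3 stroke libraries, which together reached from 110 to 135 CPM. The log2 ratio for stroke over sham was -0.57 (-0.70 to -0.45), just short of the 1.5-fold line at 0.58. It was past the line when cells were named singly by their markers and when a trend by gene span was removed, at -0.60 in both cases, and was -0.56 without the cells of shared barcodes. After anti-VCAM1 the ratio to isotype was -0.10 (-0.22 to 0.01) and after anti-VLA4 -0.13 (-0.24 to -0.02). With matched cluster weights these were -0.11 and -0.07. Of 9 microglia subsets with at least 20 cells in both libraries, 7 were lower for anti-VCAM1 and 2 higher, with 1 interval below 0. For anti-VLA4 5 were lower and 4 higher, with 0 intervals below 0.

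**Figure D2:**
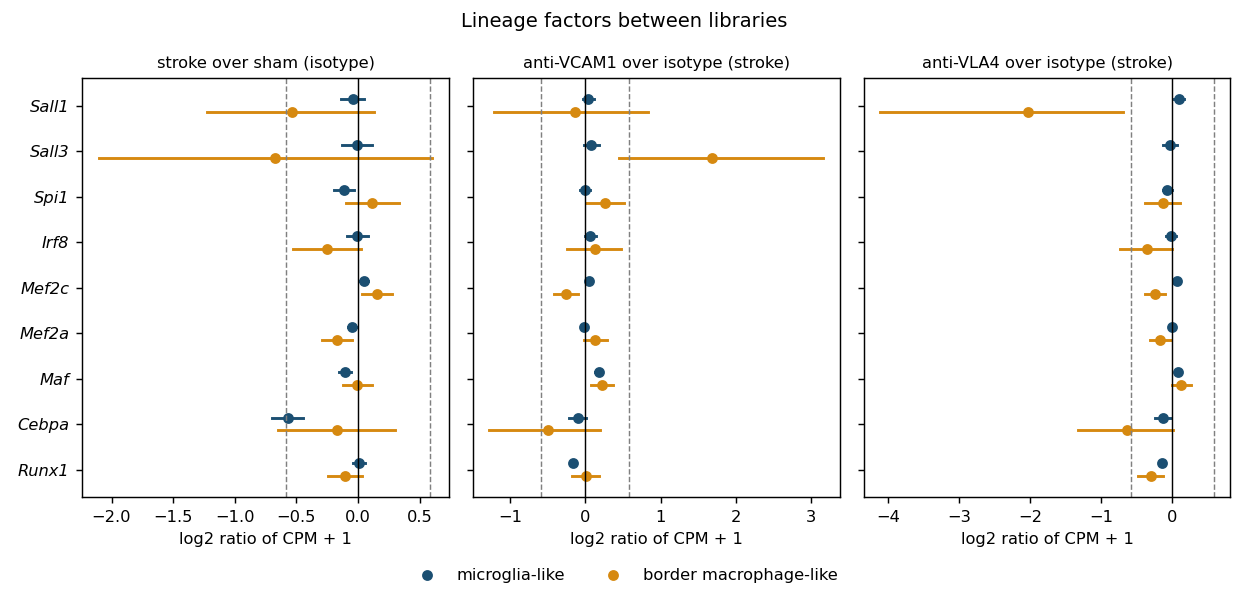
Log2 ratio of CPM + 1 (x axis, scaled for each panel) for the 9 genes in microglia-like and border macrophage-like cells, with 95% counting intervals and dashed lines at 1.5-fold; Sall3 after anti-VLA4 in border macrophage-like cells is not drawn, with 11 UMIs over both libraries. The microglia points lie near 0 apart from Cebpa for stroke at -0.57, and the border macrophage points have wide intervals, reaching -4.11 for Sall1 after anti-VLA4.

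The lower Cebpa value after stroke was seen inside microglia clusters as well. Of the 5 clusters with at least 20 cells in both the sham and the stroke isotype library, all 5 had a lower value after stroke, from -0.68 to -0.08, and the interval lay below 0 in 3. In cluster 1, led by the immediate early genes Egr1 and Fos and by Klf2, Cebpa measured 224, 139, 145 and 138 CPM, with a log2 ratio of -0.68 (-0.85 to -0.52) for stroke over sham. In cluster 7 it was -0.62 (-1.10 to -0.14), and in cluster 8 -0.55 (-1.07 to -0.05). With matched cluster weights the ratio over these 5 clusters was -0.48.

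Other measures also differed between the libraries. Cluster 1, which had a higher Cebpa level than other microglia in each library, made up 44.6%, 32.4%, 25.9% and 17.3% of microglia-like cells. The 16 genes of a list of dissociation stress and early response summed to 17499, 14512, 11513 and 9827 CPM there, with none of the 16 at 0. The members of that list did not move as one for stroke: Hspa1b and Hspa1a, heat shock chaperones, were higher by 1.33 and 0.83 and Hsp90aa1 by 0.49, while Zfp36 was past 1.5-fold lower at -0.64, and 11 of 16 intervals lay below 0 and 4 above. Over stroke isotype, 2 of the 16 were past 1.5-fold lower for anti-VCAM1 and 8 for anti-VLA4, and none was higher. Of all genes, 3.75% and 4.73% were past it either way. For anti-VCAM1 14 of the 16 intervals lay below 0 and 1 above, and for anti-VLA4 13 below and 3 above. Among all genes with at least 200 UMIs, 1284 of 7571 intervals lay below 0 and 640 above for stroke. For anti-VCAM1 762 of 8434 lay below and 1145 above, and for anti-VLA4 906 of 8841 below and 1835 above. The part of these measures in the Cebpa difference and in the antibody ratios that follow was not tested.

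Among 22 family relatives of the factors, 18 had enough UMIs in microglia-like cells. For stroke 1 was past 1.5-fold, Irf4, higher on 68 and 23 UMIs, and for anti-VCAM1 none was. For anti-VLA4 Irf1 and Maff were lower. These counts, and those of the next lists, are read beside the 6.25%, 3.75% and 4.73% of all genes. The genes named only for a count were chosen after their values were seen. Cebpb, which encodes an inflammatory C/EBP factor, measured 197 CPM in sham and 132 CPM in stroke isotype, a log2 ratio of -0.57 (-0.70 to -0.46), close to that of Cebpa. With anti-VCAM1 it measured 176 CPM, 0.41 (0.30 to 0.52) above isotype. Irf5, an interferon regulatory factor of inflammatory macrophages, was at -0.44 (-0.56 to -0.32) for stroke. Irf1, an interferon-induced factor, was at -0.47 for anti-VCAM1 and at -0.70 (-0.85 to -0.57) for anti-VLA4, where it was past 1.5-fold.

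Of 27 other factors linked to macrophage identity, 24 or 25 had enough UMIs, and 1 was past 1.5-fold for stroke (Bhlhe40, with 24 UMIs against 0 in sham), 3 for anti-VCAM1 (Klf2 and Klf4, lower, and Id3, higher) and 2 for anti-VLA4 (Id2, lower, and Id3, higher). Klf4 and Klf2, Krüppel-like factors that respond to early signals, were lower with anti-VCAM1 by log2 ratios of -0.82 (-0.96 to -0.69) and -0.87 (-0.95 to -0.79). Id2, an inhibitor of helix-loop-helix factors, was at -0.60 with anti-VLA4, past 1.5-fold, and Stat3, which relays cytokine signals, was at -0.56, short of it. Hif1a, the oxygen-regulated factor, was at 0.41 (0.28 to 0.55) for stroke.

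Of 14 genes of signals that maintain microglia, 12 had enough UMIs, and Csf1 was past 1.5-fold in 2 comparisons. Csf1 encodes a ligand of the receptor on which microglial survival depends. It measured 107, 217, 155 and 141 CPM, highest in stroke isotype. In the same order of comparisons as above, its log2 ratio was 1.02 (0.89 to 1.16), -0.48 (-0.58 to -0.39) and -0.62 (-0.72 to -0.53). None of the 18 listed target genes of the factors was past 1.5-fold in microglia-like cells in any of the 3 comparisons. Their medians were -0.04, 0.08 and 0.07.

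Among microglia subsets the factors differed more than among libraries. The subsets are clusters of the same cells, so these values are a description. How many of all genes differ in this way between a subset and the other microglia was not counted. The counts of factors and intervals in the subsets therefore have no background beside them. Disease-associated-like microglia, a lipid-handling state, numbered 304 cells, of which 5 were sham. They joined sub-clusters of 113, 106, 61 and 24 cells. Apoe was among the leading genes of each, and Cst7, Lpl and Spp1 of some. The sub-cluster of 106 cells also passed the cytokine marker list, with 5 markers. Of the 24 cells of the smallest, 19 were from the anti-VLA4 library. In the 3 stroke libraries Sall1 measured 163, 138 and 132 CPM in disease-associated-like microglia, against 281, 294 and 304 CPM in the other microglia-like cells. The log2 ratios were -0.78 (-1.08 to -0.50), -1.08 (-1.37 to -0.81) and -1.20 (-1.48 to -0.95). Mef2a, Maf, Mef2c and Sall3 were also lower in each of the 3 libraries, with median log2 ratios of -0.85, -0.82, -0.70 and -0.64 and all intervals below 0. Runx1 was lower by a median of -0.17, also with intervals below 0. Spi1, Cebpa and Irf8 had medians of -0.15, -0.02 and 0.03, and the interval of Spi1 lay below 0 in 1 library.

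**Figure D3:**
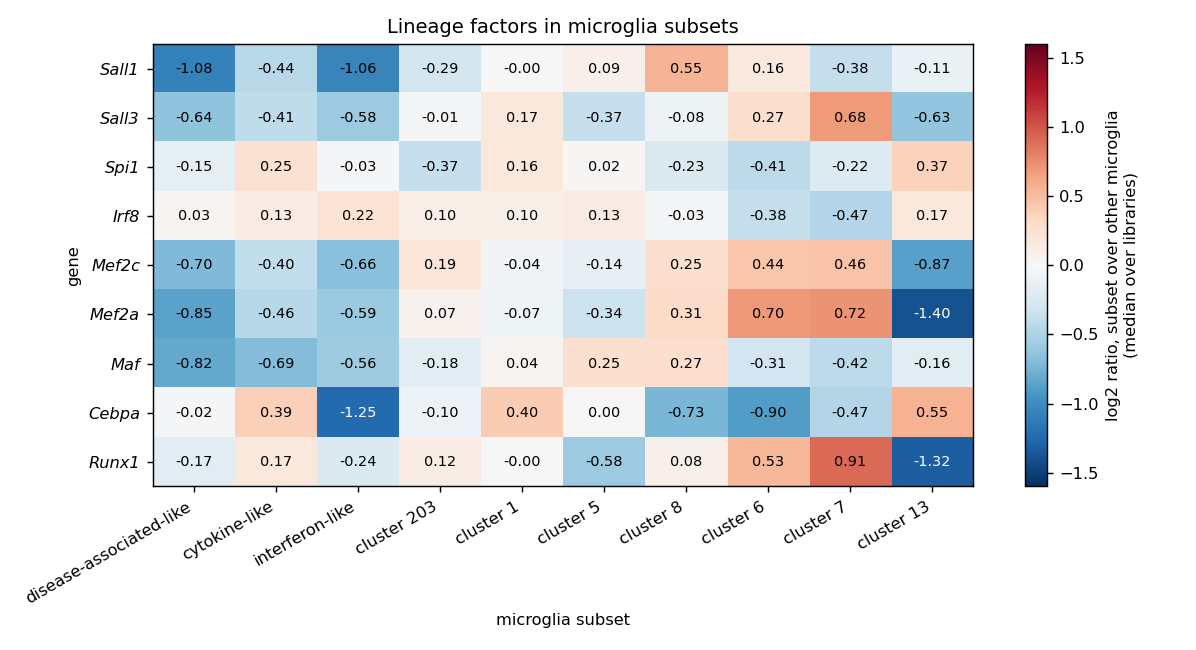
Log2 ratio of each gene in a microglia subset over the other microglia-like cells (color and printed value), as the median over libraries with at least 20 cells in the subset; the interferon-like column rests on 1 library. The disease-associated-like column is lowest for Sall1 at -1.08 and near 0 for Irf8 and Cebpa.

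Cytokine-like microglia, marked by Il1b, Ccl3, Ccl4 and Tnf, numbered 123 cells. In the 3 stroke libraries Maf, Mef2a, Sall1 and Mef2c were lower in them, with medians of -0.69, -0.46, -0.44 and -0.40 and all intervals below 0. Spi1 had a median of 0.25, above 0 by its interval in 1 library. The interferon-like microglia, marked by Ifit3 and Rsad2, numbered 63 cells, and reached 20 cells with anti-VLA4 alone, where Sall1 was at -1.06 and Cebpa at -1.25.

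Cluster 8, led by Nhs, Setbp1 and Adcy8, had the highest Sall1 level of the microglia subsets in each library, at 393, 422, 386 and 353 CPM. Its median log2 ratio over the other microglia was 0.55, with all 4 intervals above 0. Cebpa was lower there, by a median of -0.73, at 118, 80.2, 73.5 and 97.4 CPM. In cluster 1 the order was the other way: Cebpa had a median of 0.40 and Spi1 of 0.16, with all 4 intervals above 0 for both, and Sall1 was at 0.00.

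**Figure D4:**
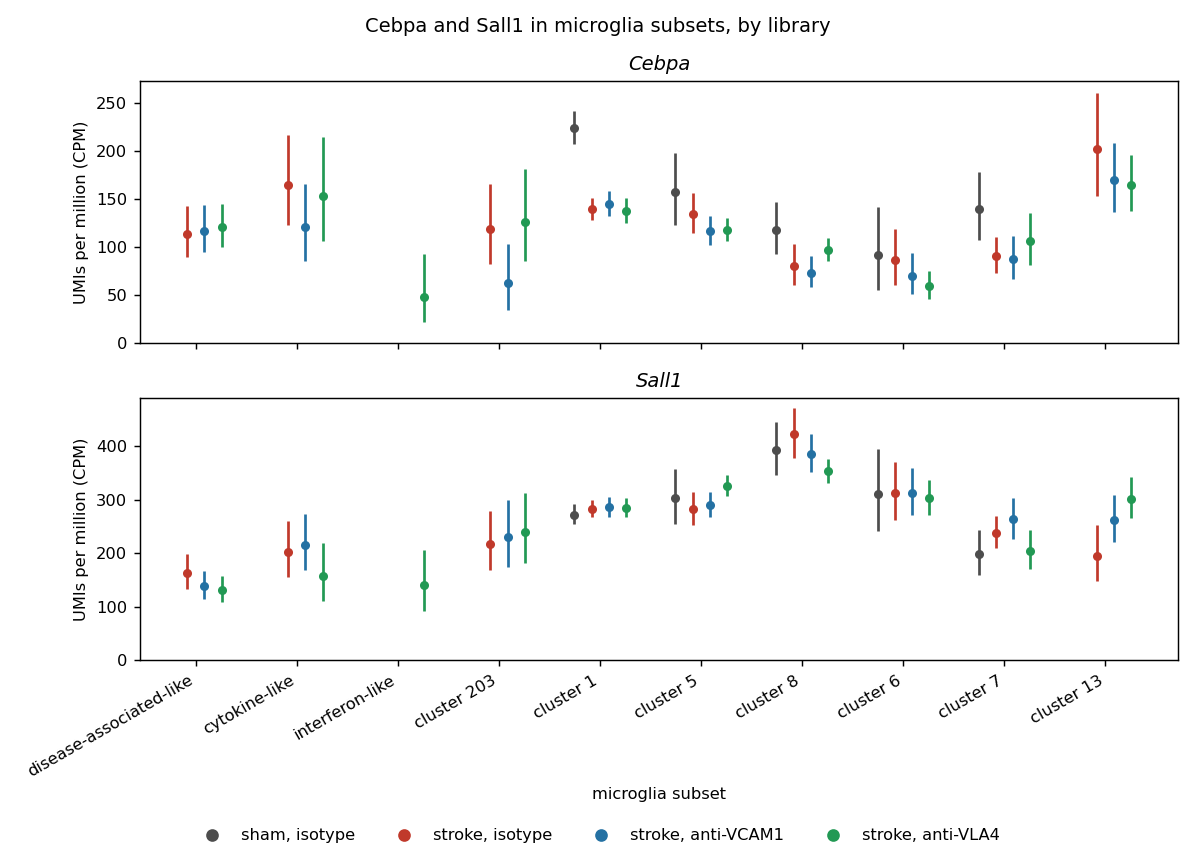
CPM (y axis, from 0) of Cebpa and Sall1 in each microglia subset with at least 20 cells in the library, with exact Poisson 95% intervals. Cebpa is highest in sham in cluster 1 at 224 CPM, and Sall1 is lowest in the disease-associated-like cells of the anti-VLA4 library at 132 CPM among the subsets drawn.

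Gene span was looked at in clusters 6, 7 and 13 alone of the microglia subsets. There the levels of the 3 longest genes differed from those of other microglia in the way that long genes did in general. Clusters 6 and 7 had 57112 and 57620 CPM of the nuclear RNA Malat1 and low median depths of 2080 and 3013 UMIs, and cluster 13 had 14453 CPM of Malat1. The long genes Mef2a, Runx1 and Mef2c had medians of 0.70, 0.53 and 0.44 in cluster 6 and 0.72, 0.91 and 0.46 in cluster 7. In cluster 13 they had medians of -1.40, -1.32 and -0.87. The short gene Cebpa had medians of -0.90, -0.47 and 0.55 in these clusters. The genes of 16.9 to 33.4 kb did not follow their length: Sall3, for example, was at 0.68 in cluster 7, above Mef2c, and Maf at -0.31 in cluster 6, below Sall1 at 0.16. From spans under 10 kb to spans over 100 kb the median of all genes went from -0.86 to 0.73 in cluster 6, from -0.82 to 0.57 in cluster 7 and from 0.48 to -1.12 in cluster 13. Between libraries the medians of the span classes stayed between -0.05 and 0.08. Span medians were not taken in the other subsets, among them the disease-associated-like cells, with 22088 CPM of Malat1. The part of gene span in the lower Mef2a and Mef2c of those cells was not tested.

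Against border macrophages, microglia stood out by Sall1 and Sall3. In border macrophage-like cells Sall1 measured 48.6, 33.3, 30.3 and 7.44 CPM, from 40, 38, 12 and 4 UMIs. The log2 ratio of microglia-like over border macrophage-like cells was 2.51 to 5.11 for Sall1 and 2.48 to 5.82 for Sall3, with all 4 intervals above 0 for both. Without the cells of shared barcodes the sham ratios went from 2.51 to 5.62 for Sall1 and from 3.42 to 5.99 for Sall3, and the ranges over libraries became 2.98 to 5.62 and 2.48 to 5.99. With each cell thinned to 1000 UMIs, 23.1% of microglia-like and 1.40% (0.516% to 3.03%) of border macrophage-like cells had a Sall1 UMI, beside 0.137% of endothelial-like cells and 1.78% of T cell-like cells. For Sall3 the shares were 14.3%, 0.234%, 0.0587% and 0.486%. The thinning left out 102 microglia-like and 17 border macrophage-like cells. Median depths before thinning were 5583 UMIs in microglia-like, 3959 in endothelial-like and 4531 in T cell-like cells.

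The Sall1 counts of border macrophage-like cells lay in few cells. The 94 UMIs came from 23 of 445 cells, whose median depth was 17034 UMIs against 5210 UMIs in the other 422. The cells were split by their counts before thinning, and a deeper cell is more likely to show a UMI, so the split itself favors depth. The 9 microglia markers summed to 10108 CPM in these 23 cells and to 2646 CPM in the others, and the 8 border markers to 2725 and 4454 CPM. Of 35 Sall3 UMIs, 29 were in the same 23 cells. In sham, 37 of the 40 Sall1 UMIs were in cells with a shared barcode, and without these the level was 4.77 CPM, from 3 UMIs in 1 cell. Of the 12 Sall3 UMIs in sham, 11 were in such cells.

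Cebpa, Irf8, Mef2a and Mef2c were also higher in microglia-like than in border macrophage-like cells in each of the 4 libraries. The log2 ratios were 0.75 to 1.24 for Cebpa, 0.42 to 1.01 for Irf8, 0.68 to 1.00 for Mef2a and 0.49 to 0.79 for Mef2c, with all intervals above 0. Runx1 was at 0.04 to 0.38, with the interval above 0 in 2 libraries. At a finer clustering (Leiden resolution 2) it was lower in microglia-like cells in sham and in stroke isotype, at -0.24 and -0.13. When cells were named singly by their markers it was lower in sham, stroke isotype and anti-VCAM1, at -0.15, -0.12 and -0.10. With CPM taken without mitochondrial, ribosomal and haemoglobin genes and Malat1 it was lower in sham and with anti-VCAM1, at -0.04 and -0.08. Spi1 lay between -0.33 and 0.17, higher in 1 library, and its interval was below 0 in 1.

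Maf alone was lower in microglia-like cells in all 4 libraries, with log2 ratios of -0.48 to -0.33 and all intervals below 0. It measured 1208, 1203, 1400 and 1314 CPM in border macrophage-like cells. At a coarser clustering (Leiden resolution 0.5) the order turned, to 0.03 to 0.57 in favor of microglia-like cells, so it depends on which cells are counted as border macrophages. After thinning, 54.4% of microglia-like and 57.2% (52.4% to 62.0%) of border macrophage-like cells had a Maf UMI, beside 7.19% of B cell-like cells.

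Between libraries the border macrophage-like cells gave little precision. Stroke over sham had 1 of 9 factors past 1.5-fold, anti-VCAM1 over isotype 1 of 9 and anti-VLA4 over isotype 2 of 8 with enough UMIs, beside 17.6%, 23.1% and 25.1% of all genes, which is near the background. Sall3 was past it for stroke at -0.67 (-2.10 to 0.60), on 12 and 10 UMIs. That value was 0.18 without the cell of highest count in each library and 1.64, on 9 UMIs, without shared barcodes. Sall3 was also past it for anti-VCAM1, at 1.68 (0.45 to 3.16), on 10 UMIs in isotype and 12 with the antibody.

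Sall1 measured 7.44 CPM in the anti-VLA4 border macrophage-like cells, 4 UMIs, a log2 ratio of -2.02 (-4.11 to -0.69). Without cells holding 2 or more endothelial marker UMIs it was -3.41. For stroke over sham it was -0.53 (-1.23 to 0.13). Without the cells of shared barcodes it was 2.59, on 38 UMIs in stroke isotype and 3 UMIs from 1 cell in sham. The 9 microglia markers, with none at 0, summed to 3986, 3789, 4330 and 2760 CPM in border macrophage-like cells, lowest with anti-VLA4, and their part in the Sall1 difference was not tested. Cebpa measured 85.1, 75.4, 53.0 and 48.4 CPM. Its ratio for stroke over sham was -0.17 (-0.65 to 0.30), or 0.19 without shared barcodes. It was past 1.5-fold for anti-VLA4 at -0.63 (-1.33 to 0.01), or -0.44 without the endothelial-marker cells. The 8 endothelial markers summed to 37.7, 35.1, 318 and 2026 CPM in border macrophage-like cells, with 4, 1, 0 and 0 of the 8 at 0. Cells with 2 or more of their UMIs numbered 5, 8, 6 and 14.

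The 18 listed target genes were read in border macrophage-like cells too. Several of them, such as P2ry12, Tmem119, Siglech, Sparc and Gpr34, are also among the microglia markers. None was past 1.5-fold for stroke, 2 were higher for anti-VCAM1 and 8 were lower for anti-VLA4, beside 17.6%, 23.1% and 25.1% of all genes either way, with medians of -0.04, 0.08 and -0.49 beside -0.01, 0.02 and -0.01 for all genes. The 2 that were higher, Gpr34 and Slc2a5, were at 0.73 and 0.90, the latter on 14 and 21 UMIs. They and the next genes are named after their values were seen. Of the 8 that were lower, Cd33, Itgam and Sparc were at -1.07, -0.77 and -0.99, and Slc2a5 had 1 UMI against 21.

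The remaining factors were better covered in border macrophage-like cells. Mef2c measured 1149, 1279, 1069 and 1083 CPM, highest in stroke isotype. Stroke over sham gave a log2 ratio of 0.16 (0.04 to 0.27), which turned to -0.13 at the coarser clustering, anti-VCAM1 over isotype -0.26 (-0.42 to -0.10), and anti-VLA4 over isotype -0.24 (-0.38 to -0.10). The last became -0.05 without the endothelial-marker cells. Runx1 measured 934, 867, 873 and 702 CPM, lowest with anti-VLA4 at a log2 ratio of -0.31 (-0.48 to -0.13), or -0.14 without those cells. Spi1 ranged from 354 to 464 CPM, Irf8 from 164 to 250 CPM and Mef2a from 1001 to 1268 CPM.

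Monocyte-like cells lacked counts of Sall1 and Sall3 and had the highest Spi1 level of the 3 classes in the stroke isotype library. Their 53 cells held 0 UMIs of Sall1 and 0 of Sall3, where a floor of 3 counts stands for 8.19 CPM. In the stroke isotype library, with 25 such cells, Sall1 was at least 16.1-fold and Sall3 at least 9.69-fold higher in microglia-like cells, taking a floor of 3 counts in the monocyte-like sum of that library. Maf, Mef2c and Mef2a measured 68.0, 215 and 385 CPM in these monocyte-like cells, with log2 ratios of microglia over monocytes of 3.69, 3.05 and 2.37. Runx1, Cebpa and Irf8 measured 414, 56.7 and 153 CPM, with ratios of 1.28, 1.15 and 1.12. Spi1 was the only one of the 9 that was lower in microglia-like cells there, at 652 CPM in monocyte-like cells and a log2 ratio of -0.81. All 7 intervals left out 0. For border macrophage-like over monocyte-like cells the intervals of Irf8, 0.46 (-0.12 to 1.09), and Cebpa, 0.41 (-0.54 to 1.52), spanned 0. Against the dendritic-like cells of that library, Irf8, on which some dendritic cells depend, was lower in microglia-like cells, at -0.78.

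Outside the myeloid cells the factors were unevenly spread. Over all libraries endothelial-like cells had 1.77 CPM of Sall1, 2.98 of Spi1, 2.74 of Irf8, 1.17 of Cebpa and 1.85 of Runx1, and 239 CPM of Mef2c and 381 of Mef2a. T cell-like cells had 435 CPM of Runx1 and 332 of Maf, and B cell-like cells had 1226 CPM of Mef2c. After thinning to 1000 UMIs a microglia-like cell had UMIs of 3.76 of the 9 genes on average, a border macrophage-like cell 2.89, a monocyte-like cell 1.55 and an endothelial-like cell 0.509.

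The genes with the most similar levels were sought over 28 sums of 10 cell classes and the libraries, among 12190 genes. These sums share libraries and depth, and the correlations (Pearson r of log2(CPM + 1)) are a description. Sall3 was closest to Csmd3 (0.930) and to Sall1 (0.917), and Sall1 to Man1a2 (0.927) and Fhit (0.922). Spi1 was closest to Tyrobp (0.974) and Cd300c2 (0.973), Irf8 to Unc93b1 (0.962) and Plcg2 (0.949), and Runx1 to Dock8 (0.984) and Apbb1ip (0.979). Cebpa was closest to Fcgr1 (0.958) and Ptpro (0.949), Maf to C1qb (0.934) and Hpgds (0.928), Mef2a to Picalm (0.961) and Jun (0.934), and Mef2c to Tmcc3 (0.889) and Epb41l2 (0.830).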

How the data were processed

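The authors deposited a matrix of raw UMI counts for each library, with genes in rows and cell barcodes in columns. The matrix headers name Cell Ranger 7.0.1, while the submitters' processing notes name Cell Ranger 6.0.0, Seurat 4.3.0.1 and the builds mm10 and GRCh38. Whether intronic reads were counted is not given in the sources used here.

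Cells were kept with at least 500 UMIs, 200 genes and at most 10% mitochondrial UMIs, and the doublets that Scrublet (expected rate 0.05) marked, 11, 24, 63 and 124 cells or 0.721% to 1.96%, were left out. All libraries were clustered together with scanpy 1.11.5 and leidenalg 0.10.2 (Python 3.11.15), on 2000 variable genes, 30 components, 15 neighbours and resolution 1. The 9 genes, the lists and mitochondrial, ribosomal protein and haemoglobin genes were left out of clustering. Clusters were named from marker lists, and classes within microglia from a second clustering of 1 cluster. Clusters 13 and 15, with markers of more than 1 class, were also clustered again. The monocyte-like and dendritic-like cells came from cluster 15. Clusters that met no name were left out of every class, the largest with 1382 cells, closest to endothelial cells.

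The UMIs of a class in a library were added up and divided by their total over all genes (CPM). Log2 ratios used a pseudocount of 1 CPM, with conditional binomial intervals without it, CPM exact Poisson intervals and shares Clopper-Pearson intervals, all at 95% and for counting error only. With 1 pooled library per group no test was made. Beside the 9 genes, the text names up to 2 genes per list and comparison with the largest log2 ratio among those with 200 or more UMIs, from which those described were taken, and for each factor the 2 genes most like it. Endothelial-marker cells were singled out after the values were seen. The genes and lists were chosen with earlier results of these data known. The ratio and interval code was tested on simulated data. TMM scaling used edgeR 4.0.16 (R 4.3.3). Promoter sequences are RefSeq's (GRCm38.p6), and gene spans GENCODE M21's.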

Additional observations from a re-analysis of the deposited data

Results flagged for a closer look

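In 3 cases a factor's counting interval lay above 0 in microglia-like cells and below 0 in border macrophage-like cells for the same pair of libraries, and the difference between the classes was not tested. Sall1 had a log2 ratio of 0.093 in microglia-like and -2.02 in border macrophage-like cells for anti-VLA4 over isotype, the latter on 4 and 38 UMIs. With matched cluster weights the Sall1 value in microglia-like cells was -0.01. Mef2c had 0.047 and -0.26 for anti-VCAM1, and 0.063 and -0.24 for anti-VLA4. Without the endothelial-marker cells the border macrophage-like values of Mef2c were -0.30 for anti-VCAM1 and -0.05 for anti-VLA4. Both antibody comparisons use the same stroke isotype library.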

How the results depend on the processing

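No paired analysis was possible because each group has 1 library. For the 9 factors in microglia-like cells, 397 of 432 log2 ratios under the alternatives moved by less than their counting interval and 394 kept their sign. In border macrophage-like cells these were 356 and 361 of 405. A value past 1.5-fold changed sign in 2 cases, both Sall3 for stroke: 0.18 without the highest cell and 1.64 without shared barcodes. Sall1 for stroke, not past it at -0.53, went to 2.59 without shared barcodes, on 38 UMIs against 3 in sham. For anti-VCAM1 Sall1 went from -0.13 to 0.99 when thinned, on 5 UMIs. Alternatives without shared barcodes, without endothelial-marker cells and without clusters 6, 7 and 13 were chosen after seeing the data.

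The number of factors past 1.5-fold in microglia-like cells stayed at 0 for both antibodies and was 1 for stroke, Cebpa, when cells were named singly by their markers and when the gene span trend was removed. In border macrophage-like cells it changed from 1, 1 and 2 (stroke, anti-VCAM1, anti-VLA4) as follows. For stroke it was 0 without the highest cell, at pseudocount 10 and at a minimum of 100 UMIs, and 2 without endothelial-marker cells. For anti-VCAM1 it was 2 at resolution 0.5, thinned to 1000 UMIs and without endothelial-marker cells, and 0 at resolution 2, by each cell's own markers and at a minimum of 100 UMIs. For anti-VLA4 it was 4 at resolution 0.5, 0 thinned, and 1 by each cell's own markers, at pseudocount 10, at a minimum of 100 UMIs and without endothelial-marker cells. No factor was lower in microglia-like cells in all 4 libraries at resolution 0.5, where Maf turned.

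The number of all genes past 1.5-fold also moved. In microglia-like cells it was 764, 476 and 613 and became 1203, 977 and 1156 thinned, 1148, 895 and 1132 at pseudocount 0.1, 69, 28 and 69 at pseudocount 10, and 222, 115 and 233 at a minimum of 100 UMIs. It was 1402 (stroke) and 758 (anti-VCAM1) with no minimum. With doublets kept and the cells clustered again, which changes both together, it was 760 (anti-VCAM1) and 1038 (anti-VLA4). With matched cluster weights, over clusters with 20 or more cells in both libraries, it was 1213 (stroke). In border macrophage-like cells it was 1447, 1749 and 1984 and became 613, 711 and 772 thinned, 687, 1090 and 1237 at pseudocount 10, 6120, 7067 and 7247 with no minimum, and 202, 240 and 357 at a minimum of 100 UMIs. Other scalings moved the median of all genes by under 0.1 on the log2 scale. Depth limits Sall1 and Sall3 in border macrophage-like cells, with 1 to 40 UMIs per library, and monocyte-like cells, with 3 to 25 cells. Leaving out a replicate was not possible.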
